A study of Vitis vinifera with 18 samples.

Results

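The interaction of variety and growing site was measured in ripe berries of 2 red wine grapes (Vitis vinifera), Cabernet Sauvignon, grown worldwide, and Aglianico, a variety of southern Italy. It asks, for each transcript, whether the step from Molise to Sicily had the same size and direction in both varieties. The value is the log2 difference between Sicily and Molise in Cabernet Sauvignon minus the same difference in Aglianico. It rests on 12 of the 18 libraries of the series, chosen by their labels: Cabernet Sauvignon at Sicily, Cabernet Sauvignon at Molise, Aglianico at Sicily and Aglianico at Molise, with 3 biological replicates each. All vines were bush-trained and spur-pruned in the open field, and each replicate was a pool of 10 fully ripe berries ground without their seeds. Per the series' design text, the question was how genotype and environment act together on the berry transcriptome. The features were transcript clusters, groups of assembled transcripts that stand for a gene or a part of one. Of 97442 clusters, 16111 had at least 10 counts in every one of the 12 libraries and were kept. Clusters are numbered, not named, and 0 identifiers matched the grape gene table used here, so no cluster is given a function and no list of pathway or tissue marker genes was examined. For the same reason the labelled tissue was not checked against marker genes.

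A ripening grape berry stores sugar, loses acid and, in red varieties, builds anthocyanin pigment in its skin. Heat, light and water supply are known to act on these processes, and varieties are known to differ in how strongly their berries follow the site, a property called phenotypic plasticity. In expression data a shared response puts a gene at the same log2 distance between sites in every variety. A departure from that is an interaction of genotype and environment.

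The 12 libraries held 22791077 to 29938459 expected counts. The kept clusters took 87.1%, 98.5% and 90.9% of the counts in Cabernet Sauvignon Sicily replicate 2, replicate 3 and a further library of that group whose column has no replicate number (the unnumbered one). They took 98.2% to 98.3% in Cabernet Sauvignon Molise, 85% to 96.8% in Aglianico Sicily and 93.2% to 96% in Aglianico Molise. The first and the last of these 3, replicate 2 and the unnumbered library, also had more clusters with 10 or more counts, 45103 and 29228, beside 19173 to 24328 in the other 10 libraries. Several results that rest on these 2 libraries are therefore also given without them. Others are given with both alone, among them the correlations, the variance shares, the split by level and the Campania shares. Levels are CPM, the counts of a cluster scaled to the summed counts of the kept clusters, with the library sums corrected by TMM factors (trimmed mean of M values). A cluster is called where the adjusted p (edgeR quasi-likelihood test, Benjamini-Hochberg over the 16111 clusters) was under 0.05. The p-values measure the spread between these berry pools.

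Sicily and Molise differed in another way in Cabernet Sauvignon than in Aglianico for 2455 clusters, 15.2% of those tested. The interaction was positive for 1492 (9.26%), which means that the step to Sicily was higher, or less low, in Cabernet Sauvignon. It was negative for 963 (5.98%). The median size among called clusters was 1.56 on the log2 scale with a median standard error of 0.34, against a median size of 0.43 over all clusters tested. At an unadjusted p under 0.05 there were 4900 clusters. The smallest interaction called had a size of 0.45 on the log2 scale.

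The lean to positive calls depended on the scaling. Under upper-quartile scaling 44.2% of 2647 calls were positive, against 60.8% of 2455 under TMM. Upper-quartile scaling moved the median interaction over all clusters to -0.136, beside 0.023 under TMM, -0.004 under RLE scaling (the size factors of DESeq2) and 0.001 with library sums alone. Among large interactions the lean held under each of these scalings. At a size of at least 4 there were 188 positive and 17 negative calls under TMM, and 162 to 180 positive and 16 to 21 negative calls under the other scalings.

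Both site differences behind the interaction were wide. In Cabernet Sauvignon 4038 clusters (25.1%) differed between Sicily and Molise, 2265 of them (14.1%) higher and 1773 (11%) lower at Sicily. In Aglianico 4119 clusters (25.6%) differed, with 1967 (12.2%) higher and 2152 (13.4%) lower at Sicily. The direction split of these site differences depended on the scaling. The share higher at Sicily in Cabernet Sauvignon was 56.1% under TMM, 36.4% under upper-quartile scaling and 23.4% with library sums alone. In Aglianico it was 47.8%, 48.4% and 20.8%. Single libraries moved these counts: the Cabernet Sauvignon count was 2125 without the unnumbered Sicily library, 2148 and 2217 without Molise replicates 1 and 3, and 1135 without both Sicily libraries with many clusters. The Aglianico count was 2683 without Sicily replicate 3.

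The step to Sicily in Cabernet Sauvignon was weakly related to that in Aglianico. Over the 16111 clusters the site differences of the varieties had a Pearson r of 0.15 and a Spearman rho of 0.25, and 60% had the same sign. These correlations are across clusters, which are not independent replicates. The site differences share no library, but the scaling was set over all 12. Of the clusters called for site, 1391 were called in both varieties, 1136 in the same direction and 255 in opposite directions. The shared direction made up 28.1% of the Cabernet Sauvignon calls and 27.6% of the Aglianico calls. Opposite directions made up 6.32% and 6.19%.

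**Figure D1:**
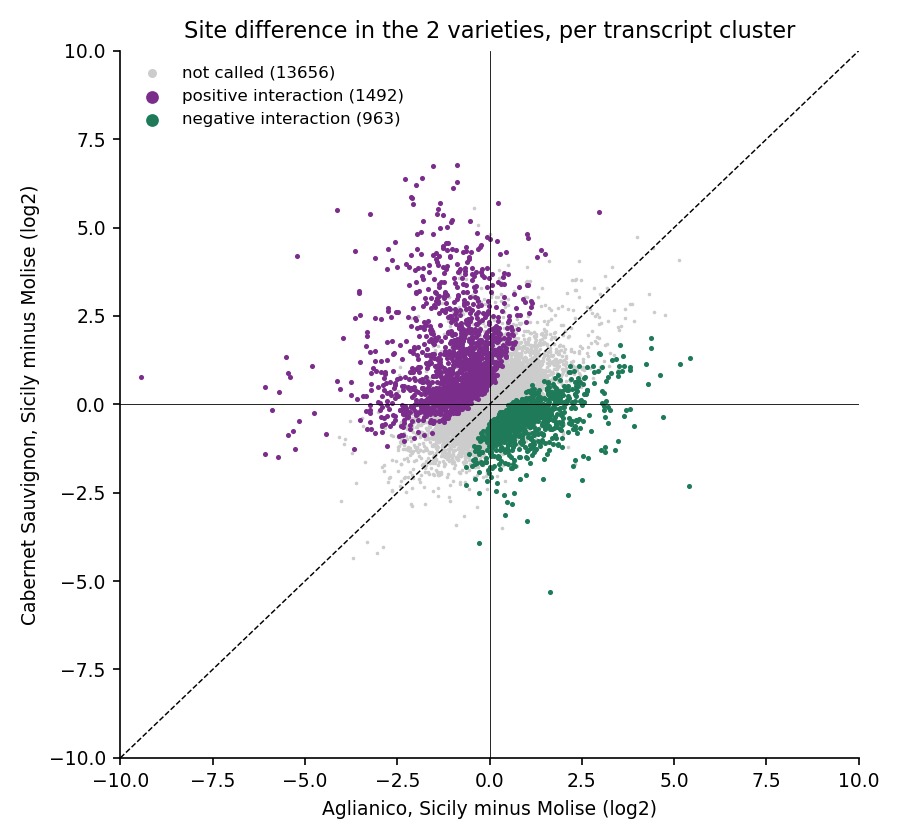
Site difference (Sicily minus Molise, log2) of each of the 16111 clusters in Cabernet Sauvignon (vertical axis) against Aglianico (horizontal axis). Purple points are the 1492 called positive interactions, green points the 963 called negative ones, and the dashed line marks equal differences. Called clusters lie away from the line, and the upward arm of purple points at little change in Aglianico has no green counterpart of the same length.

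Most called interactions came from clusters whose site difference was called in a single variety. For 967 clusters (39.4% of the 2455) the site difference was called in Cabernet Sauvignon alone, and for 1028 (41.9%) in Aglianico alone. Of all clusters called for site in Cabernet Sauvignon and not in Aglianico, 36.5% of 2647 had a called interaction. For the reverse, the share was 37.7% of 2728. The remaining clusters of this kind passed the threshold in one variety without a called difference between the varieties.

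Under TMM the clusters called in Cabernet Sauvignon alone were mostly higher at Sicily, but not under upper-quartile scaling. Among the 967, 689 were higher at Sicily in Cabernet Sauvignon, with median site differences of 1.60 in Cabernet Sauvignon and -0.36 in Aglianico on the log2 scale. The other 278 were lower, with medians of -0.93 and 0.18. Under upper-quartile scaling 523 were higher and 583 lower, and with library sums alone 403 and 367. There were 99 higher and 45 lower without both Cabernet Sauvignon Sicily libraries with many clusters. The clusters called in Aglianico alone were nearly even in direction under TMM. Among the 1028, 495 were higher at Sicily in Aglianico, with medians of -0.18 in Cabernet Sauvignon and 1.28 in Aglianico. The other 533 were lower, with medians of 0.20 and -1.28. Upper-quartile scaling gave 631 higher and 410 lower, and library sums alone 336 and 567. Without the same Cabernet Sauvignon libraries 216 were higher and 286 lower.

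Clusters that moved in opposite directions numbered 255, or 10.4% of the called interactions. In 171 of them Cabernet Sauvignon rose and Aglianico fell at Sicily, with median site differences of 1.30 and -1.34. In 84 Cabernet Sauvignon fell and Aglianico rose, with medians of -0.85 and 0.78. Under upper-quartile scaling the numbers were 141 and 132. The number of opposite clusters became 137 without the unnumbered Cabernet Sauvignon Sicily library, 123, 152 and 133 without Cabernet Sauvignon Molise replicates 1, 2 and 3, and 167 without Aglianico Sicily replicate 3. Without both Cabernet Sauvignon Sicily libraries with many clusters it was 69. All 255 interactions were also called in each of the 12 fits that left out 1 library, so what was lost in those fits was the call of a site difference. Each of these fits shares 11 libraries with the one from which the 255 were picked. By levels alone, 746 of the 16111 clusters (4.63%) had Sicily and Molise libraries that did not overlap in either variety and that differed in opposite directions, and 659 of these had a called interaction.

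A shared direction with unequal size was the least frequent shape. Of the 1136 clusters that moved the same way in both varieties, 64 had a called interaction. Among those higher at Sicily in both, the step was larger in Cabernet Sauvignon for 17 and larger in Aglianico for 30. Among those lower in both, the fall was larger in Cabernet Sauvignon for 1 and larger in Aglianico for 16. For the other 1072 clusters the median size of the interaction was 0.23 with a median standard error of 0.30, beside median site differences of 0.95 in Cabernet Sauvignon and 0.98 in Aglianico in size. The missing call does not show that the responses were equal. Another 141 called interactions (5.74%) had a site difference called in neither variety, and 9204 clusters were called for neither a site difference nor the interaction.

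**Figure D2:**
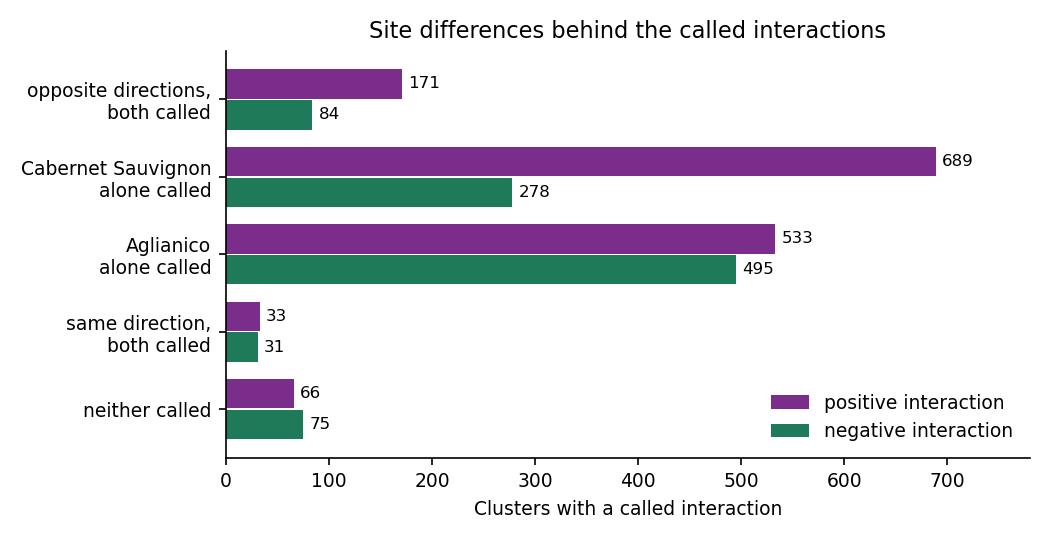
Number of clusters with a called interaction (horizontal axis) by which site differences were called in the same fit (vertical axis), for positive interactions in purple and negative ones in green. Cabernet Sauvignon alone holds 689 positive and 278 negative clusters under TMM (523 higher and 583 lower at Sicily under upper-quartile scaling). Aglianico alone holds 533 positive and 495 negative clusters under TMM (410 lower and 631 higher at Sicily under upper-quartile scaling).

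Read the other way, the same interaction says how far the varieties lay apart at each site. Cabernet Sauvignon and Aglianico differed in 5498 clusters (34.1%) at Sicily, with 2851 (17.7%) higher and 2647 (16.4%) lower in Cabernet Sauvignon. At Molise they differed in 3134 (19.5%), with 1410 (8.75%) higher and 1724 (10.7%) lower. With library sums alone 68.4% of the Sicily calls and 68.2% of the Molise calls were higher in Cabernet Sauvignon, against 51.9% and 45% under TMM. Under upper-quartile scaling the shares were 40.5% and 51.6%. The Molise count was 1462 and 2071 without Cabernet Sauvignon Molise replicates 1 and 2 and 1891 without Aglianico Molise replicate 3. The Sicily count was 1763 without both Cabernet Sauvignon libraries with many clusters.

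The gap between varieties was wider at Sicily for 1678 of the 2455 called clusters (68.4%), beside 57.7% of all clusters tested. Under the other scalings the share of called clusters was 68% to 68.8%, and without both Cabernet Sauvignon Sicily libraries with many clusters it was 64.9%, beside 54.9% of all. Its median size in called clusters was 1.05 at Sicily and 0.58 at Molise on the log2 scale, beside 0.43 and 0.34 over all clusters. For 1443 called clusters (58.8%) the varieties differed at Sicily alone, for 517 (21.1%) at Molise alone, and for 114 (4.64%) at both sites in the same direction. Over all clusters tested these numbers were 3953, 1589 and 1296, so Sicily alone was the most frequent of these there too. Here alone means that the variety difference was called at that site and not at the other. The varieties differed at Sicily alone in 313 called clusters and at Molise alone in 288 when both Cabernet Sauvignon Sicily libraries with many clusters were left out. The order of the varieties turned round in 249 clusters (10.1%). In 150 of these Cabernet Sauvignon was higher at Sicily and lower at Molise, and in 99 it was lower at Sicily and higher at Molise.

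For each called cluster, the group furthest from the median of the other 3 was most often one of the Sicily groups, and which of them led depended on the libraries and the scaling. Cabernet Sauvignon Sicily stood furthest in 874 called clusters (35.6%), above the others in 640 and below in 234. Aglianico Sicily did so in 809 (33%), above in 366 and below in 443. Aglianico Molise followed with 463 (18.9%), above in 228 and below in 235. Cabernet Sauvignon Molise had 309 (12.6%), above in 128 and below in 181. Under upper-quartile scaling Cabernet Sauvignon Sicily stood above in 497 and below in 468, and Aglianico Sicily above in 497 and below in 357, so the lean of both Sicily groups depended on the scaling. With library sums alone Cabernet Sauvignon Sicily stood furthest in 660 and Aglianico Sicily in 780 called clusters. Without both Cabernet Sauvignon Sicily libraries with many clusters the numbers were 196 for Cabernet Sauvignon Sicily, 95 for Cabernet Sauvignon Molise, 296 for Aglianico Sicily and 174 for Aglianico Molise, of 761. Over all clusters tested the shares under TMM were 28.4% for Cabernet Sauvignon Sicily and 29.3% for Aglianico Sicily. They were 21.8% for Aglianico Molise and 20.5% for Cabernet Sauvignon Molise.

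Variety took 29.1% of the variance of log2 CPM over the kept clusters, site 26.2%, the interaction 17.8% and the spread within groups 26.9%. The interaction was the largest of the 3 design terms for 3376 clusters (21%). Berry pools were least alike in Cabernet Sauvignon Sicily, with a median SD of 0.27 on the log2 scale, and in Aglianico Molise, with 0.26. Aglianico Sicily had 0.21 and Cabernet Sauvignon Molise 0.17.

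Large positive interactions had their highest levels in 2 libraries of Cabernet Sauvignon Sicily. For the 630 positive interactions of at least 2, the median level was 5.32 log2 CPM in replicate 2, 4.33 in replicate 3 and 5.36 in the unnumbered library. It was 2.73, 3.11 and 2.88 in Cabernet Sauvignon Molise replicates 1, 2 and 3. In Aglianico it was 2.56, 2.81 and 2.10 at Sicily and 3.40, 4.49 and 3.65 at Molise, in the order of the replicate numbers. Replicate 3 of Cabernet Sauvignon Sicily thus lay below the other 2 libraries of its group and above the medians of every Cabernet Sauvignon Molise and Aglianico Sicily library, while Aglianico Molise replicate 2 lay above it.

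The 189 negative interactions of at least 2 showed tighter groups. Their median levels were 1.93, 2.15 and 1.74 log2 CPM in Cabernet Sauvignon Sicily replicates 2, 3 and the unnumbered library, and 2.71, 2.71 and 2.81 in Cabernet Sauvignon Molise. They were 3.69, 3.83 and 3.94 in Aglianico Sicily and 1.56, 1.67 and 1.79 in Aglianico Molise. Aglianico Sicily was thus the high group, and the highest median in a library of another group was 2.81. These clusters were picked for their group means, so the levels show how the libraries share them.

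**Figure D3:**
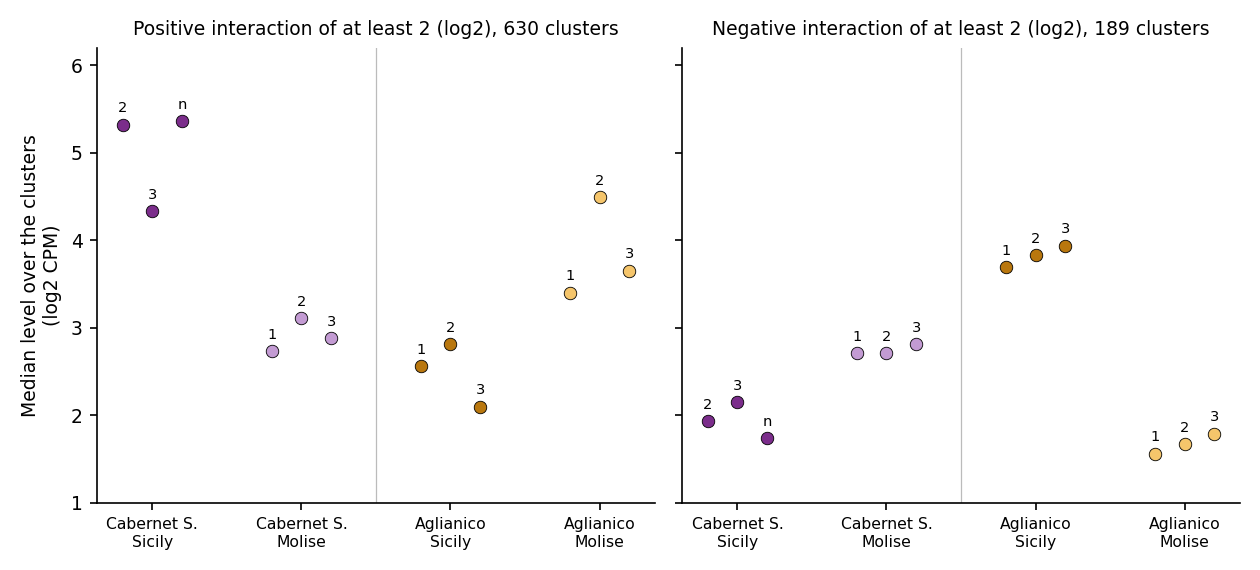
Median level (log2 CPM, vertical axis) in each library over the 630 positive interactions of at least 2 (left) and the 189 negative ones (right). Points are libraries, with the replicate number above each and n for the unnumbered one. On the left, Cabernet Sauvignon Sicily replicate 3 sits at 4.33, below 5.32 and 5.36 in the other libraries of its group. On the right, the Aglianico Sicily libraries sit at 3.69 to 3.94.

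Clusters picked for a called site difference in these same libraries were also set library by library against Molise. Of the 877 clusters with a called interaction and a called rise at Sicily in Cabernet Sauvignon above that in Aglianico, 876 lay above all 3 Molise libraries in replicate 2, 864 in replicate 3 and 877 in the unnumbered library. The median distance from the Molise mean was 1.61, 1.11 and 1.82 on the log2 scale. In Aglianico, 720 clusters had a called fall and a positive interaction. Of these 716, 714 and 717 lay below all 3 Molise libraries in Sicily replicates 1, 2 and 3, at median distances of -1.28, -1.22 and -1.33. These counts, too, describe clusters picked for their group difference, so they do not show that the direction was repeated between pools. The share of all tested clusters that lay beyond Molise in each library is not given.

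Without replicate 2 and the unnumbered library of Cabernet Sauvignon Sicily, 761 clusters had a called interaction, of which 721 were also called with all 12. Replicate 3 is then the sole library of its group and is assumed to vary like the other groups. The median interaction of the 1492 positive clusters was 1.77 with all 12 libraries and 1.41 without the 2, while that of the 963 negative clusters was -1.30 and -1.22. Of the 188 positive interactions of at least 4, 98 kept that size and 63 kept their call. The part of the additional clusters of those 2 libraries in these differences was not tested.

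Named clusters were taken from those called in every fit that left out 1 library. Cluster-27903.40438 had the largest interaction, and its signal was nearly lost in a single group. It had 1790, 2050 and 1770 CPM in Cabernet Sauvignon Sicily replicates 2, 3 and the unnumbered library, and 1110, 910 and 1280 CPM in Cabernet Sauvignon Molise. In Aglianico it had 0.496, 3.09 and 0.934 CPM at Sicily and 1310, 670 and 1190 CPM at Molise. The Aglianico Sicily libraries lay far below all others, and the 10 counts of Cluster-27903.40438 in replicate 1 were the fewest the filter allowed. The interaction was 10.22 ± 0.72 (SE) on the log2 scale (edgeR, adjusted p = 3.04e-05), from site differences of 0.77 ± 0.42 in Cabernet Sauvignon (adjusted p = 0.203) and -9.45 ± 0.61 in Aglianico (adjusted p = 1.02e-05). At Molise the varieties differed by 0.05 ± 0.41 (adjusted p = 0.942).

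Cluster-27903.32150 was the most abundant of them with a positive interaction, and its high group was Aglianico Molise. It had 2490, 1610 and 3120 CPM in Cabernet Sauvignon Sicily replicates 2, 3 and the unnumbered library, and 1090, 1040 and 960 CPM in Cabernet Sauvignon Molise. Aglianico had 1360, 1830 and 1070 CPM at Sicily and 11700, 6940 and 14000 CPM at Molise. The sites did not overlap in either variety, and the directions were opposite. Its interaction was 4.16 ± 0.44 (edgeR, adjusted p = 0.000251), made of a rise of 1.23 ± 0.30 in Cabernet Sauvignon (adjusted p = 0.014) and a difference of -2.93 ± 0.32 in Aglianico (adjusted p = 0.000129). Without both Cabernet Sauvignon Sicily libraries with many clusters the interaction was 3.56. Over the 25 planned other settings its adjusted p (edgeR, limma or DESeq2) was 2.18e-18 to 0.00454. That range leaves out 11 fits added later, each with 1 library left in a group, where the interaction was 3.51 to 4.56.

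Cluster-27903.34611 had the largest negative interaction and was nearly absent from Aglianico Molise. Cabernet Sauvignon had 24, 2.53 and 22.6 CPM at Sicily in replicates 2, 3 and the unnumbered library, and 101, 50.1 and 90 CPM at Molise. Aglianico had 28.5, 39.9 and 33.9 CPM at Sicily and 0.442, 1.24 and 0.73 CPM at Molise, where replicate 1 of Cluster-27903.34611 again held the minimum of 10 counts. The sites were apart in both varieties in opposite directions, although replicate 3 of Cabernet Sauvignon Sicily lay far under its group. The interaction was -7.69 ± 1.02 (edgeR, adjusted p = 0.00137), with site differences of -2.30 ± 0.64 in Cabernet Sauvignon (adjusted p = 0.0255) and 5.39 ± 0.79 in Aglianico (adjusted p = 0.00109). Without both Cabernet Sauvignon Sicily libraries with many clusters, which leaves the low replicate 3, it was -10.4. Over the 24 planned other settings its adjusted p (edgeR, limma or DESeq2) was 3.55e-17 to 0.00758. In the 11 fits added later, which that range leaves out, the interaction was -8.58 to -7.04.

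Cluster-27903.32864 ranked 3 by mean level among the kept clusters, at 22700 CPM, and its site difference was called in Aglianico. It averaged 24300 ± 9250 CPM in Cabernet Sauvignon Sicily and 19800 ± 1490 CPM in Cabernet Sauvignon Molise (SD, n = 3 each), with single libraries at 13700, 28700 and 30500 CPM and at 19800, 21300 and 18300 CPM. In Aglianico it had 32600, 30100 and 57300 CPM at Sicily and 9070, 5310 and 5960 CPM at Molise. The Cabernet Sauvignon sites overlapped and the Aglianico sites did not. The interaction was -2.27 ± 0.50 (edgeR, adjusted p = 0.012), from 0.29 ± 0.35 in Cabernet Sauvignon (adjusted p = 0.57) and 2.56 ± 0.37 in Aglianico (adjusted p = 0.000639). Its call was lost without both Cabernet Sauvignon Sicily libraries with many clusters (-2.05, adjusted p = 0.0689). Over the 25 planned other settings its adjusted p (edgeR, limma or DESeq2) ranged from 5.27e-05 to 0.0937. In the 11 fits added later, which that range leaves out, the interaction was -3.12 to -1.86.

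**Figure D4:**
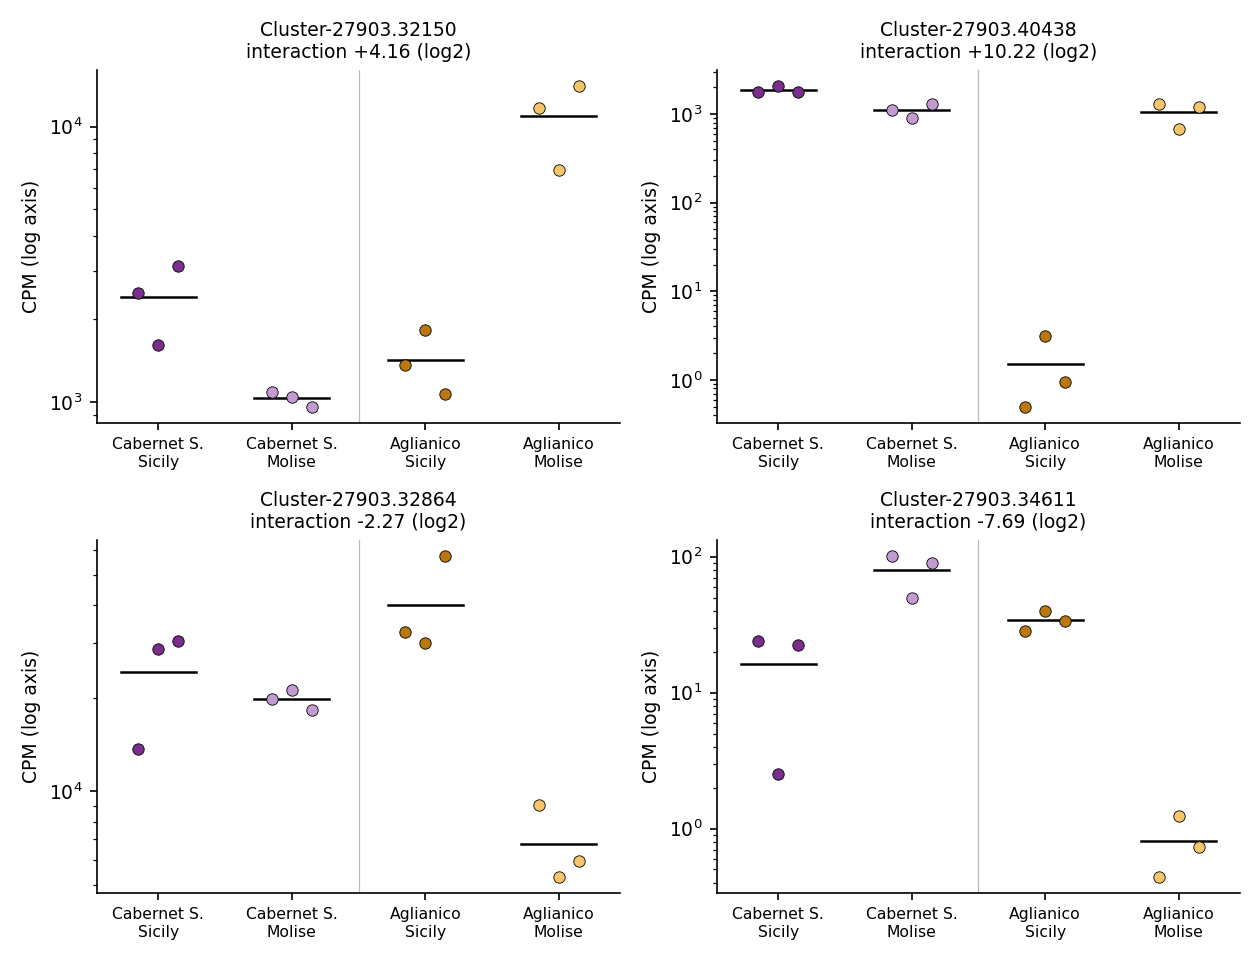
Level (CPM, log axis) of the 4 named clusters in the 12 libraries, by group. Points are libraries and lines are group means (n = 3). Cluster-27903.40438 is at 0.496 to 3.09 CPM in Aglianico Sicily and at 670 CPM or more elsewhere, and Cluster-27903.34611 is at 0.442 to 1.24 CPM in Aglianico Molise.

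Interactions were called at every level of expression and less often among the faintest clusters. Among the 3223 clusters with the lowest mean levels (0.567 to 3.79 CPM) 8.5% were called, at a median standard error of 0.48. Among the 3222 with the highest (58.6 to 36100 CPM) 18.7% were called, at a median standard error of 0.23. The low set had 123 positive and 151 negative calls and the high set 418 and 185, or 307 and 304 under upper-quartile scaling. Among the 1000 most abundant clusters 197 (19.7%) were called, beside 15.2% of all clusters tested. Under TMM 138 of them were positive and 59 negative.

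The called clusters, 15.2% of those tested, held 16.5% to 24.5% of the kept counts of a library. The 1492 positive clusters held 17.8%, 12.3% and 17.4% of the kept counts in Cabernet Sauvignon Sicily replicates 2, 3 and the unnumbered library, and 8.71% to 9.13% in Cabernet Sauvignon Molise. In Aglianico they held 4.74% to 6.14% at Sicily and 11.7% to 14% at Molise. The 963 negative clusters held 5.39% to 7.82% in Cabernet Sauvignon Sicily and 8.33% to 8.85% in Cabernet Sauvignon Molise. In Aglianico they held 11.7% to 15.1% at Sicily and 4.45% to 4.76% at Molise. The sites did not overlap in either variety for these shares. Their direction follows from how the clusters were chosen, and the shares give their weight.

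Berries from Campania took no part in the choice of clusters. In the variety whose site difference was called, they lay more often near Molise than near Sicily, and less so in the other variety. Of the 967 clusters called in Cabernet Sauvignon alone, Cabernet Sauvignon Campania was nearer to Molise in 79.2%, beside 53.7% of all 16111 clusters. Of the 1028 called in Aglianico alone, Aglianico Campania was nearer to Molise in 68.3%, beside 55.9% of all clusters. In each named cluster, Aglianico Campania replicate 3 was the library of its group nearest to the levels of Cabernet Sauvignon Campania. The reason was not tested. It lay far below its group in Cluster-27903.32150, but not in every named cluster. On a scale set over all 18 libraries Cluster-27903.32150 had 665 CPM there, beside 7950 and 4210 CPM in replicates 1 and 2. Cabernet Sauvignon Campania had 973 to 1280 CPM. Cluster-27903.34611 had 48.6 CPM in Aglianico Campania replicate 3, beside 24.1 and 44.2 CPM in replicates 1 and 2, and 47.7 to 82 CPM in Cabernet Sauvignon Campania. Cluster-27903.32864 had 16300 CPM in this library, beside 14100 and 6670 CPM, and 18600 to 27400 CPM in Cabernet Sauvignon Campania. Without Aglianico Campania replicate 3 the shares were 76.6% and 58.3%. In the variety whose site difference was not called the shares were lower: Cabernet Sauvignon Campania was nearer to Molise in 59.3% of the 1028, and Aglianico Campania in 47.1% of the 967, or 50.3% without its replicate 3. The gap between the varieties at Campania was nearer to that at Molise in 79.4% of the 2455 called clusters and 61.6% of all clusters, or 79.6% and 61.8% without that library. No test was made of these shares.

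Single values showed the same placing in part. On the same scale Cluster-27903.40438 had 1420, 1520 and 1220 CPM in Cabernet Sauvignon Campania replicates 1, 2 and 3. In Aglianico Campania it had 561 and 537 CPM in replicates 1 and 2, far above Aglianico Sicily, and 1390 CPM in replicate 3. Cluster-27903.34611 went the other way, with 24.1, 44.2 and 48.6 CPM in Aglianico Campania replicates 1, 2 and 3. On that scale Aglianico Sicily had 29.8 to 41.7 CPM and Aglianico Molise 0.462 to 1.29 CPM.

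The number of calls depended on which libraries entered the fit. Leaving out 1 library at a time gave 1502 to 2772 called interactions. The count was 1502 without Cabernet Sauvignon Molise replicate 3 and 1552 without replicate 1 of that group, each more than 1.5 times below 2455. In all, 1305 clusters (53.2% of the 2455) were called in every one of these 12 fits, 771 positive and 534 negative. Of these, 255 had opposite site differences, 450 a site difference called in Cabernet Sauvignon alone, 564 in Aglianico alone, 36 in the same direction in both, and 0 in neither. Their median size was 1.83 on the log2 scale.

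**Figure D5:**
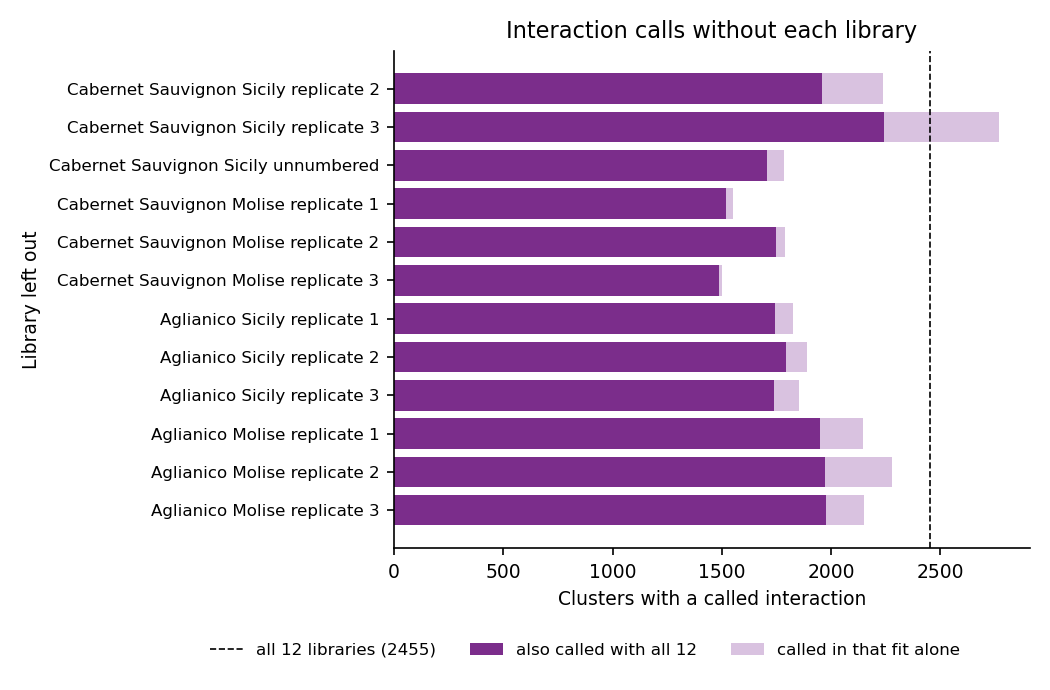
Number of clusters with a called interaction (horizontal axis) when 1 library is left out (vertical axis), parted into clusters also called with all 12 libraries (dark) and clusters called in that fit alone (light). The dashed line is the count with all 12, 2455. Counts run from 1502 without Cabernet Sauvignon Molise replicate 3 to 2772 without Cabernet Sauvignon Sicily replicate 3.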

How the data were processed

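Per the submitters' processing notes, CASAVA 1.8, RSEM and DESeq2 were used, with no role stated. How reads were aligned and clusters assembled is not given in the sources used here. Expected counts (estimated reads that need not be whole) for 97442 clusters, deposited unscaled by the authors, were rounded. Reads of related genes or diverged alleles can be divided between clusters.

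Columns were matched to samples by label, 1 Cabernet Sauvignon Sicily column to its group alone. Replicates differed far beyond counting noise (chi-square of 21.7 or more per degree of freedom, clusters with a summed count of 20 or more).

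Clusters with 10 or more counts in all 12 libraries were kept, and library sizes and TMM factors (0.77 to 1.2) were computed within them. Differences were tested with glmQLFit and glmQLFTest of edgeR 4.0.16 (robust, R 4.3.3) in 1 fit of 4 group means, tried on simulated counts first. Standard errors are the log2 difference divided by the square root of F. Log2 CPM used a prior count of 2, and the group furthest from the others was found on log2 group means with 0.5 CPM added. Other scalings, filters and libraries, limma 3.58.1, DESeq2 1.42.0 and a replicate block were also tried.

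In each direction, the clusters named are those with the highest mean level and the largest interaction (mean of at least 5 CPM) among clusters called in every fit without 1 library. The comparison, filter and alternatives were chosen with earlier results of these data known. In the RefSeq table of assembly GCF_030704535.1, 0 identifiers matched, so no sequence is shown.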

Additional observations from a re-analysis of the deposited data

Results flagged for a closer look

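The site difference itself differed between the varieties, by the interaction test of edgeR, for 2455 clusters. The 4 named clusters were chosen among the called ones, so their calls follow from that choice. The interaction (log2) was 4.16 for Cluster-27903.32150 and 10.22 for Cluster-27903.40438. It was -2.27 for Cluster-27903.32864 and -7.69 for Cluster-27903.34611.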

How the results depend on the processing

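The sign of the interaction was kept in every alternative run for the 4 named clusters. The call of Cluster-27903.32864 was lost in 3 of the 25 other settings (no filter, adjusted p = 0.0846; a test against a difference of 1 on the log2 scale, 0.0937; and without both Cabernet Sauvignon Sicily libraries with many clusters, 0.0689), in 7 of 11 fits added after the data were seen, and that of the other 3 named clusters in 0. The interaction count was 880 with no filter, where 96331 clusters were tested, 3316 with filterByExpr and 429 against a difference of 1. By DESeq2 it was 3296 and by limma-voom 2165. Without 1 library each, the counts were 1502 to 2772 for the interaction, 2125 to 4407 for the site difference in Cabernet Sauvignon, 2683 to 4790 in Aglianico, 4013 to 5832 for the variety difference at Sicily, 1462 to 3794 at Molise and 123 to 316 for opposite site differences. With no filter these last counts were 1181, 2094, 3494, 1215 and 50. With filterByExpr the variety difference at Sicily gave 8315. Without both Cabernet Sauvignon Sicily libraries, the interaction gave 761, the site difference in Cabernet Sauvignon 1135, the variety difference at Sicily 1763 and opposite site differences 69. In fits added after the data were seen, which leave 1 library in another group, the interaction count was 427, 292 and 563 with 1 Cabernet Sauvignon Molise library, 843, 572 and 686 with 1 Aglianico Sicily library and 1196, 1805 and 1164 with 1 Aglianico Molise library. With replicate 3 or replicate 2 of Cabernet Sauvignon Sicily left out together with 1 other library of that group, it was 1936 (2 and 3) and 2907 (3 and the unnumbered). The cause of these changes was not tested, and the fits without libraries also differ from the main fit in the number of libraries.

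Replicate numbers were not taken as pairing the libraries, since the labels give them no shared source and 5 of 15 pairs with the same number in different groups did not correlate above 0.1 (r of -0.17 to 0.35). The other 10 did, beside 6 of 30 pairs with another number (r of -0.44 to 0.31), and 7 of 11 numbered libraries correlated best with their own number, a hint of sharing from the data. With a replicate block on the 11 numbered libraries, 1758 interactions were called, beside 1783 on the same libraries without the block. The site difference in Cabernet Sauvignon gave 1939, beside 2125, and opposite site differences 167, beside 137. Precision was lowest for the faintest clusters, with a median standard error of 0.48 in the 3223 lowest and 0.23 in the 3222 highest by level.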

Other observations

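The requirement of 10 counts in all 12 libraries leaves out clusters that are nearly silent in a group. In all, 7270 clusters reached 10 counts in all 3 libraries of at least 1 group and were not kept. Of these, 1027 did so in Cabernet Sauvignon Sicily alone, 1184 in Cabernet Sauvignon Molise alone, 424 in Aglianico Sicily alone and 608 in Aglianico Molise alone. A further set fell short in a single group: 356 in Cabernet Sauvignon Sicily, 83 in Cabernet Sauvignon Molise, 1034 in Aglianico Sicily and 496 in Aglianico Molise. The group missing most often was Aglianico Sicily, whose libraries also had the fewest clusters with 10 or more counts. They had 19979, 20571 and 19173 in replicates 1, 2 and 3. The next lowest library, Aglianico Molise replicate 3, had 20817. The part of this in the missing clusters was not tested. At the edge of the filter, 289 clusters had a lowest count of 10, and 299 had a lowest count of 9 and were left out. Of the 289, 35 had a called interaction, beside 2455 of all 16111 clusters tested (15.2%).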
